A study of Mus musculus with 36 samples.

Results

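The genes described here encode 3 families of RNA-binding proteins that act on nuclear pre-mRNA: the serine/arginine-rich (SR) splicing factors, the heterogeneous nuclear ribonucleoproteins (hnRNPs) and the RNA-binding motif (RBM) proteins. They were taken by symbol (Srsf followed by a digit, Hnrnp, or Rbm followed by a digit or x), a rule that reads no measured value, although the choice of families and gene lists was made with earlier results of these data known. The rule found 67 of 12580 genes in the steady-state table, made up of 11 SR, 20 hnRNP and 36 RBM genes, and 67 of 12403 genes, with the same family sizes, in the Lyve1 table. The union was 68 of 12810 genes, since Rbm20 was listed only at steady state and Rbm47 only in the Lyve1 table. A filter on low counts left 52 of the 67 for testing at steady state (10 SR, 18 hnRNP, 24 RBM) and 54 of 67 in the Lyve1 table (10, 18 and 26). The 15 and 13 members left out never exceeded 23 counts in a library.

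SR proteins bind exonic enhancers through an RNA recognition motif and recruit the spliceosome through an arginine- and serine-rich tail, whereas many hnRNPs coat nascent RNA and repress nearby splice sites. The RBM genes share little beyond an RNA recognition motif and encode spliceosome components, exon junction factors, a cold-induced chaperone of RNA and proteins of ribosome assembly. All 3 families are expressed in most cells of the brain, and many members regulate their own transcripts through alternative exons that trigger decay.

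The 36 samples were RNA precipitated from mouse half-brain homogenates and sequenced as 3′ libraries by MARS-seq. All animals carried 1 copy each of CX3CR1-CCre, of an NCre fragment driven by Sall1 or by Lyve1, and of Ribo-tag, which puts an HA epitope on the ribosomal protein Rpl22 where both fragments of Cre meet; the labels call the tagged cells Sall1+ microglia and Lyve1+ macrophages. The groups used were anti-HA and IgG precipitates of Sall1 animals (6 and 6 libraries), of Lyve1 animals 12 h after an intraperitoneal injection of 2.5 mg/kg lipopolysaccharide (LPS; 4 and 4) and of Lyve1 animals at steady state (6 and 6), while 4 libraries of Sall1 animals given LPS (2 HA, 2 IgG) were not analysed here. IgG precipitates hold background RNA of the whole tissue, and precipitates of a homogenate cannot tell fewer cells of a type from less RNA per cell. The labels do not give ages, the sex of the animals or which HA and IgG libraries came from 1 brain, and no label ties each library to an animal of its own, so p-values measure only the spread between these libraries, which may be technical.

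Libraries are named by group and by the pair of numbers in their column. Errors of CPM values are SDs over the libraries of a group (6 each at steady state, 4 each after LPS). Errors of log2 ratios are SEs derived from the test's F statistic, and adjusted p-values are edgeR's unless another tool is named. Total counts ranged from 362063 to 1696679, and 803 to 3986 counts per library fell in the members. Of 11 microglial markers, 8 of the 9 tested were higher in Sall1 HA than in Sall1 IgG, and the 3 border macrophage markers tested, of 8 listed, were all higher in Lyve1 HA than in Lyve1 IgG. In Lyve1 HA 3 of the 9 tested microglial markers were higher than in Lyve1 IgG too, and 10 neuronal markers summed to 4314 to 7717 CPM (counts scaled to the TMM-adjusted library size) in all 6 groups. The Sall1 IgG libraries 2-1 and 2-2 stood apart. On the first principal component of the steady-state table they had -8.10 and -15.2, within the HA libraries (-38.1 to -2.05), whereas the other Sall1 IgG libraries had 22.9 to 28.01. Their microglial markers nevertheless summed to 413 and 437 CPM, within the IgG range of 412 to 584 CPM and below the lowest Sall1 HA library (1550 CPM). The Y-linked gene Ddx3y had 23 to 52 counts in the Sall1 libraries whose first number is 1 or 2 and 0 to 1 in those numbered 3. Among Lyve1 animals it had 9 to 55 counts in LPS HA, 25 to 35 in LPS IgG, 0 to 2 in steady-state HA and 0 to 1 in steady-state IgG. LPS and the Y-linked difference cannot be told apart in any comparison below that sets LPS against steady state.

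Together, the members took a larger share of HA than of IgG libraries in Lyve1 animals at steady state, with no such separation after LPS or in Sall1 animals. The share was 0.247% ± 0.0140 of all counts in Lyve1 HA and 0.188% ± 0.0105 in Lyve1 IgG at steady state (SD, n = 6 each), with ranges of 0.222% to 0.260% and 0.178% to 0.205% that did not overlap. After LPS it was 0.238% ± 0.0122 in HA and 0.209% ± 0.0141 in IgG (SD, n = 4 each), where HA 2-2 (0.220%) lay below IgG 1-1 (0.221%) and 1-2 (0.222%). In Sall1 animals it was 0.233% ± 0.0392 in HA and 0.227% ± 0.0642 in IgG (SD, n = 6 each). In IgG 2-2, the library with the highest share (0.337%), 570 of 2888 member counts were those of Rbm25, described below. Without Rbm25 the Sall1 share was 0.233% ± 0.0389 in HA and 0.210% ± 0.0387 in IgG, still with overlap, and after LPS it was 0.220% to 0.248% in HA and 0.191% to 0.214% in IgG, with none. In Sall1 IgG 2-1 and 2-2, 22 of the 52 tested members (42.3%) exceeded all 4 other Sall1 IgG libraries and 5 (9.62%) fell below them, against 16.8% and 19.2% of all 9619 genes. In Sall1 HA 3-1 and 3-2, 16 members (30.8%) fell below all 4 other Sall1 HA libraries and 1 (1.92%), Srsf4, exceeded them, against 13.9% and 14.7% of all genes. These pairs of libraries were singled out after their values were seen.

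**Figure D1:**
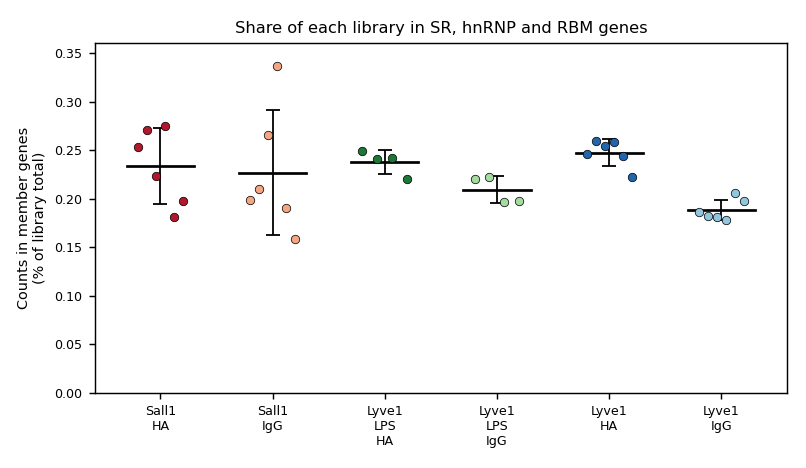
Share of each library's counts that fell in SR, hnRNP and RBM genes, in percent, by group; points are libraries and bars are the mean with its SD. The Lyve1 HA libraries at steady state (0.222% to 0.260%) lie above the Lyve1 IgG libraries at steady state (0.178% to 0.205%), whereas the LPS groups overlap slightly and the Sall1 groups overlap widely.

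The comparison of Lyve1 HA with Lyve1 IgG shows which transcripts an antibody to the tag brought down beyond an unspecific one. Of the 52 tested members, 10 rose in HA and 0 fell at an adjusted p under 0.05 in edgeR. Among all 9619 genes 11.7% were higher and 14.0% lower. The members' share of 19.2% in either direction was below the 25.7% of all genes, but the split was on 1 side. No member fell by DESeq2 or limma-voom either. At an unadjusted p under 0.05, 18 were higher and 0 lower. Such unadjusted counts were made for the members only, here and below, so they cannot be set against all genes. The median log2 ratio was 0.30 over the members and 0.01 over all genes, and 46 of 52 members were above 0. By family, 2 of 10 SR, 6 of 18 hnRNP and 2 of 24 RBM genes rose.

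Among SR genes, Srsf4, a splicing factor with a long RS tail, had 91.5 to 117 CPM in Lyve1 HA, with a median of 103, against 49.2 to 90.9 CPM in Lyve1 IgG, with a median of 66.6. All 6 HA libraries lay above all 6 IgG libraries, and the log2 ratio was 0.62 ± 0.17 (SE, adjusted p = 0.00633). Srsf7, which also takes part in mRNA export, had 12.5 to 31.1 CPM in HA and 4.39 to 15.9 CPM in IgG, with a log2 ratio of 0.89 ± 0.32 (adjusted p = 0.0368) and overlapping groups. Srsf3, the smallest SR protein, did not pass (48.5 ± 14.3 CPM in HA and 22.2 ± 6.65 CPM in IgG, log2 1.11 ± 0.42, adjusted p = 0.0558).

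The hnRNP genes gave 6 of the 10 calls, and 4 of these had groups that did not overlap, as did 8 of all 52 members, against 13.6% of all genes. Hnrnpa0, an hnRNP that binds AU-rich elements of inflammatory transcripts, had 43.0 to 88.3 CPM in Lyve1 HA, with a median of 65.9, and 21.6 to 36.9 CPM in Lyve1 IgG, with a median of 27.5. Every HA library exceeded every IgG library, and the log2 ratio was 1.19 ± 0.29 (adjusted p = 0.00297). Hnrnpa3, a relative of the splicing silencer hnRNP A1, had the highest ratio of the members (2.07 ± 0.65, adjusted p = 0.0188) but few counts: 6 to 16 per library in HA and 0 to 7 in IgG. Hnrnpll, known in T cells as the regulator of Ptprc (CD45) splicing, had 7.73 to 18.4 CPM in HA and 2.04 to 7.95 CPM in IgG (log2 1.33 ± 0.37, adjusted p = 0.00873). Only 1 HA library, 3-2, reached into the IgG range. Hnrnpdl, which regulates its own splicing, had 28.7 to 53.9 CPM in HA and 16.3 to 25.5 CPM in IgG (log2 0.98 ± 0.27, adjusted p = 0.00792), with no overlap. Hnrnpab, a protein of mRNA transport in neurons, changed least of the 10 and was measured with the most counts of the hnRNP calls (191.6 ± 19.1 CPM in HA and 138 ± 15.6 CPM in IgG, log2 0.48 ± 0.11, adjusted p = 0.00173). Hnrnpc, which binds uridine tracts in introns, had 33.4 ± 7.71 CPM in HA and 20.6 ± 3.55 CPM in IgG (log2 0.67 ± 0.24, adjusted p = 0.0392).

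Of the RBM genes, Rbmx (hnRNP G) had the smallest p of all members: 25.8 to 43.3 CPM in Lyve1 HA, with a median of 36.3, against 13.6 to 25.5 CPM in Lyve1 IgG, with a median of 17.4. The lowest HA library lay just above the highest IgG library, and the log2 ratio was 0.95 ± 0.20 (adjusted p = 0.000748). Its retrocopy Rbmxl1 did not pass (71.7 ± 18.2 CPM in HA and 59.9 ± 17.3 CPM in IgG, log2 0.28 ± 0.19, adjusted p = 0.287), and reads of such near copies may be split in counting. Rbm42, which binds hnRNP K, had 197 to 289 CPM in HA and 118 to 174 CPM in IgG without overlap (log2 0.66 ± 0.19, adjusted p = 0.0104).

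Of these 10 calls, those of Hnrnpa0, Hnrnpab and Rbmx held with libraries that share a first number summed, where fewer samples entered. Those of Srsf4, Srsf7, Hnrnpa3, Hnrnpc, Hnrnpdl, Hnrnpll and Rbm42 were lost there. When each of the 12 libraries was left out in turn, 8 of the 10 calls held. The call of Hnrnpc (log2 0.57 to 0.70) was lost without Lyve1 HA 1-1, 1-2 or 2-2 or without Lyve1 IgG 1-1, 1-2, 2-1, 3-1 or 3-2, and that of Srsf7 (0.75 to 0.91) without Lyve1 HA 1-2, 2-1 or 2-2 or Lyve1 IgG 1-1, 1-2 or 3-1.

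**Figure D2:**
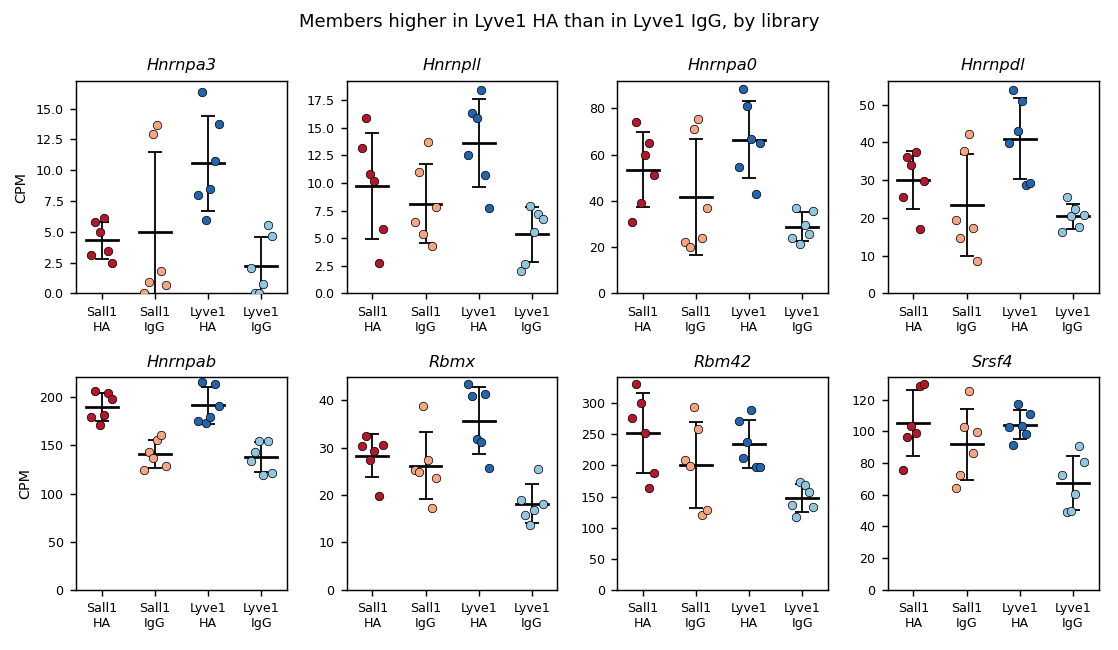
CPM of 8 members in each steady-state library; points are libraries and bars are the mean with its SD. In Lyve1 animals the HA libraries lie above the IgG libraries for all 8 genes, with 1 library of overlap for Hnrnpll, while in Sall1 animals 2 IgG libraries reach the HA level for Hnrnpa3, Hnrnpa0 and Hnrnpdl.

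Other splicing genes gave a mixed picture in the same comparison. Of 32 tested core spliceosome genes, 11 rose and 3 fell in Lyve1 HA (median log2 0.36). Among them, Sf3b5 of the SF3b complex rose (203 ± 26.3 CPM in HA and 99.6 ± 13.3 CPM in IgG, log2 1.02 ± 0.14, adjusted p = 4.88e-06) as did the Sm protein gene Snrpf (0.78 ± 0.18, adjusted p = 0.0017), whereas the U5 protein genes Prpf8 (-1.27 ± 0.17, adjusted p = 3.32e-06) and Snrnp200 (-0.99 ± 0.15, adjusted p = 2.22e-05) fell. Of 17 SR kinases, SR-related and Tra2 genes 1 rose, the splicing activator Tra2b (1.34 ± 0.39, adjusted p = 0.0112), and 1 fell, the kinase Clk2 (-0.51 ± 0.17, adjusted p = 0.0288). Of 20 tissue-restricted regulators 3 rose and 0 fell, and of 25 other RNA-binding proteins without the family prefixes 5 rose and 0 fell, among them the cold-inducible Cirbp (0.71 ± 0.18, adjusted p = 0.00357) and Ybx1 (0.60 ± 0.14, adjusted p = 0.00229).

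In Sall1 animals, few members passed between HA and IgG precipitates. Of 52 members 1 rose and 1 fell in edgeR, against 4.81% higher and 4.99% lower (9.80% in all) among 9619 genes, and the median log2 ratio was 0.16 over the members and -0.01 over all genes. Hnrnpab rose: it had 179, 207, 171, 181, 204 and 198 CPM in Sall1 HA, against 124, 143, 137, 155, 161 and 128 CPM in Sall1 IgG. Hnrnpab was the 1 member whose groups did not overlap, against 3.59% of all genes, and its HA libraries were all above its IgG libraries (log2 0.43 ± 0.11, adjusted p = 0.00936), and the ratio was close to that in Lyve1 animals (0.48), from separate libraries. The call was lost without the Sall1 libraries numbered 3 (0.41), which leaves 4 libraries per group. It was lost without those numbered 1 or 2 (0.48), which leaves 2. With libraries that share a first number summed the call was lost too, as 0 members passed.

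The 2 lines share no library, so their HA to IgG ratios can be set side by side. Of the 52 members 34 were above 0 in both lines, 3 below 0 in both, 12 above 0 in Lyve1 alone and 3 in Sall1 alone. Of the 10 members that rose in Lyve1 HA, 9 were above 0 in Sall1 animals, with log2 ratios from -0.01 for Srsf7 to 0.46 for Hnrnpc. Without Sall1 IgG 2-1 and 2-2, an alternative chosen after seeing the data, 7 of the 56 members then tested rose in Sall1 HA and 0 fell, against 13.1% of 9922 genes called in either direction. These were Hnrnpa3 (2.22, adjusted p = 0.0308), Srsf1 (1.73, adjusted p = 0.0057), Hnrnpa0 (1.05, adjusted p = 0.00287), Hnrnpdl (0.99, adjusted p = 0.00728), Rbmxl1 (0.63, adjusted p = 0.0361), Rbm42 (0.63, adjusted p = 0.0214) and Hnrnpab (0.46, adjusted p = 0.00976). Of these, Hnrnpa3, Srsf1, Hnrnpa0, Hnrnpdl and Rbm42 were among the 22 members that exceeded all 4 other Sall1 IgG libraries in 2-1 and 2-2. Leaving those 2 libraries out raises the ratios of these genes by construction, so their calls are no separate evidence. The part of the composition of these 2 libraries in the difference between the lines was not tested further.

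**Figure D3:**
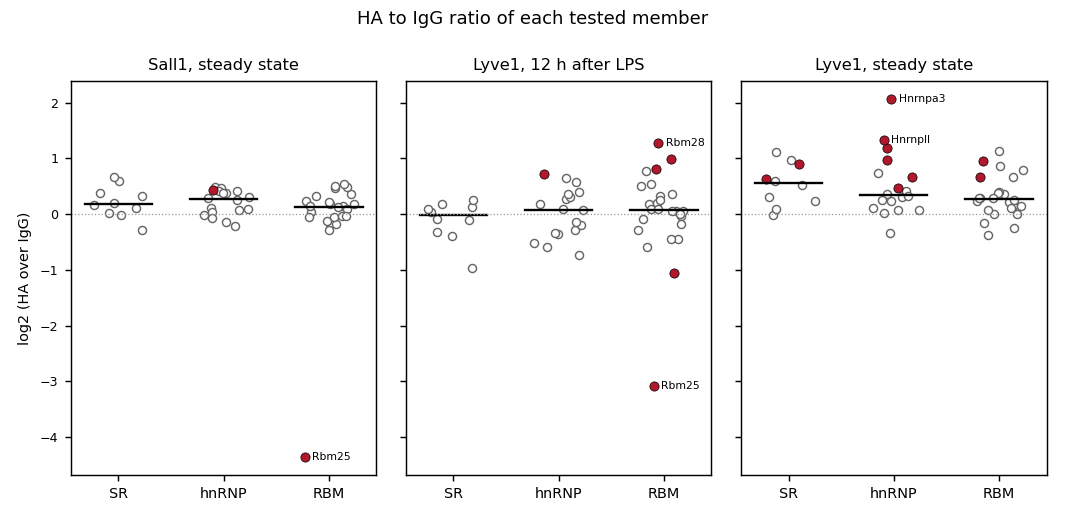
log2 ratio of HA over IgG for each tested member, by family and comparison; filled red points passed an adjusted p under 0.05, open points did not, and lines are family medians. In Lyve1 animals at steady state 46 of 52 members lie above 0 and 10 passed, while Rbm25 lies lowest in Sall1 animals (-4.36) and in LPS-treated Lyve1 animals (-3.08).

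Rbm25 encodes a partner of the U1 snRNP that regulates splice site choice, among others of apoptosis genes. In Sall1 HA it had 10, 10, 8, 24, 6 and 6 counts (libraries 1-1 to 3-2), against 32, 33, 292, 570, 8 and 3 counts in Sall1 IgG. The high values were those of IgG 2-1 and 2-2, at 315 and 651 CPM, while IgG 3-1 and 3-2 were as low as HA (4.94 and 2.14 CPM). The log2 ratio of Sall1 HA over Sall1 IgG was -4.36 ± 1.01 (adjusted p = 0.00842). It was -0.76 without IgG 2-1 and 2-2 and -1.68 in limma-voom. The call was lost in both, and also with only the groups compared (-4.41) or summed libraries (-4.36). The ratio turned to 0.31 (adjusted p = 0.903) in the libraries numbered 3 alone. The size of the Sall1 value was thus set by 2 libraries.

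The same gene was separated in LPS-treated Lyve1 animals without such libraries. Rbm25 had 9.94, 8.84, 3.66 and 7.61 CPM in LPS HA, against 65.6, 108.7, 59.2 and 34.4 CPM in LPS IgG. All 4 IgG libraries lay above all 4 HA libraries, and the log2 ratio of LPS HA over LPS IgG was -3.08 ± 0.38 (adjusted p = 5.66e-06). In LPS IgG it stood above steady-state IgG, where it had 8.70 to 25.7 CPM with a median of 13.01 (log2 2.09 ± 0.30, adjusted p = 6.63e-06). In HA the change after LPS did not pass (7.51 ± 2.74 CPM in LPS HA and 13.6 ± 6.24 CPM in steady-state HA, log2 -0.85 ± 0.41, adjusted p = 0.153). Nor did HA pass against IgG in Lyve1 animals at steady state (-0.17 ± 1.15, adjusted p = 0.935). That last value came from the steady-state fit, where a gene's spread is shared with the Sall1 libraries, IgG 2-1 and 2-2 included. The HA to IgG ratio after LPS over that at steady state was -2.94 ± 0.51 on the log2 scale (adjusted p = 0.00213), and these 3 calls held in each setting run. In the reference annotation no other protein-coding gene overlaps Rbm25 and no pseudogene is named for it.

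**Figure D4:**
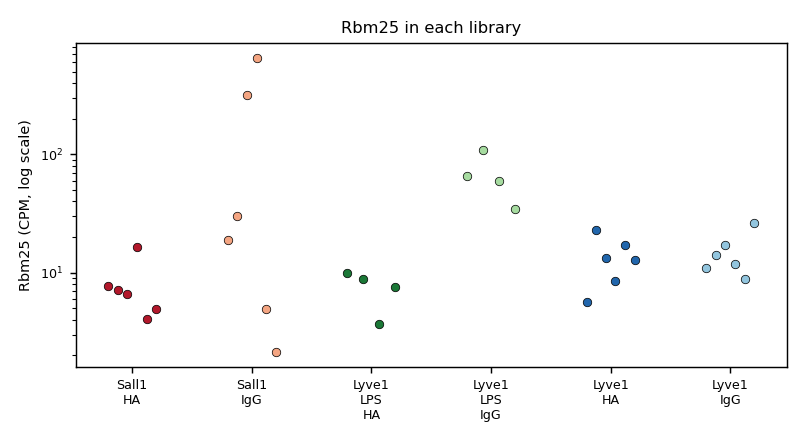
Rbm25 in each library, in CPM on a log axis, by group; points are libraries, with no mean drawn. The 4 IgG libraries after LPS (34.4 to 108.7 CPM) lie above all Lyve1 HA libraries and above all steady-state Lyve1 IgG libraries, and 2 Sall1 IgG libraries reach 315 and 651 CPM.

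Direct comparisons of the 2 lines called no member. In Sall1 HA over Lyve1 HA, 0 of 52 members passed in edgeR, against 1.24% higher and 0.166% lower (1.40% in all) of all genes, and 0 in DESeq2 and limma-voom; 0 had groups that did not overlap, against 1.56% of all genes. At an unadjusted p under 0.05, counted for the members only, 5 were higher and 5 lower. The smallest p was that of Rbm43, at 6.34 ± 1.39 CPM in Sall1 HA and 14.2 ± 9.71 CPM in Lyve1 HA (log2 -1.03 ± 0.38, adjusted p = 0.195). In Sall1 IgG over Lyve1 IgG, 0 members passed in edgeR, as did 0.00% of all genes, with 8 higher and 0 lower at an unadjusted p under 0.05, 1 call in DESeq2 (Rbm25) and 0 in limma-voom; 1 had groups that did not overlap, against 0.489% of all genes. The ratio of HA to IgG in Sall1 over that in Lyve1 likewise gave 0 members in edgeR, DESeq2 and limma-voom, against 0.208% higher and 0.0104% lower (0.218% in all) of all genes, with 0 higher and 3 lower at an unadjusted p under 0.05. For Rbmx, which had the smallest p there, the difference was -0.82 ± 0.28 on the log2 scale (adjusted p = 0.574). The ratio uses the same libraries as the comparisons within each line and is no separate evidence.

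The Sall1 HA libraries numbered 3 differed from the rest of their group. When they alone stood for Sall1 against Lyve1 HA, so that neither group held more than 2 Ddx3y counts in a library, 8 of the 58 members then tested passed, 7 lower and 1 higher in Sall1 HA, against 8.78% of 10248 genes in either direction. The lower ones were Rbm3 (-3.80), Rbm26 (-2.49), Srsf3 (-1.80), Hnrnpll (-1.65), Hnrnpul2 (-1.12), Hnrnpk (-1.06) and Rbm5 (-0.88), and the higher one was the nucleolar factor Rbm28 (1.03). Rbm26, Srsf3, Hnrnpll, Hnrnpul2 and Hnrnpk were among the 16 members already seen below all 4 other Sall1 HA libraries in 3-1 and 3-2. Their calls are thus no separate evidence. Rbm3 was below the count filter when all libraries entered. Rbm26, which links nuclear polyadenylated RNA to the exosome, had 2.05 and 5.79 CPM in libraries 3-1 and 3-2, against 21.1 to 23.1 CPM in the other 4 Sall1 HA libraries. The IgG libraries 3-1 and 3-2 were low too, at 7.42 and 4.28 CPM, against 18.3 to 31.3 CPM in the other Sall1 IgG libraries.

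After LPS, 6 members passed between HA and IgG precipitates of Lyve1 animals, and 31 of 54 were above 0. Of 54 members 4 rose and 2 fell in LPS HA over LPS IgG in edgeR, against 5.22% higher and 4.40% lower (9.62% in all) among 9680 genes, and the median log2 ratio was 0.06 over the members and 0.00 over all genes. The groups did not overlap for 8 members, against 15.2% of all genes. Hnrnpab had 224, 211, 223 and 191.7 CPM in LPS HA, against 124, 143, 117 and 135.5 CPM in LPS IgG. The groups were clearly apart (log2 0.72 ± 0.14, adjusted p = 0.000851). Hnrnpab thus passed in all 3 HA to IgG comparisons, which share no library, but in Sall1 animals not with summed libraries. Rbm42 had 259, 163, 198 and 175 CPM in LPS HA, against 97.7, 91.5, 101 and 109.5 CPM in LPS IgG (log2 0.98 ± 0.17, adjusted p = 0.000261), and it too had passed at steady state.

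The calls of Rbm28, Rbmxl1 and Rbm26 depended on single libraries. Rbm28, a nucleolar factor of ribosome assembly, had 26.7 ± 14.2 CPM in LPS HA and 9.75 ± 4.17 CPM in LPS IgG (log2 1.27 ± 0.37, adjusted p = 0.0238), and the call was lost without LPS HA 2-2 (0.92), LPS IgG 1-2 or LPS IgG 2-1. Rbmxl1 had 85.9 ± 24.5 CPM in LPS HA and 48.8 ± 5.82 CPM in LPS IgG (log2 0.81 ± 0.24, adjusted p = 0.0245), and the call was lost without LPS HA 2-2 (0.63), LPS IgG 1-1, 2-1 or 2-2. Rbm26 fell, with 9.78 ± 5.04 CPM in LPS HA and 22.1 ± 3.31 CPM in LPS IgG (log2 -1.05 ± 0.34, adjusted p = 0.0407), and the call was lost without LPS HA 1-2 or 2-2 or any single LPS IgG library (-0.85 to -1.13).

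In HA precipitates of Lyve1 animals, 5 of 54 members rose after LPS and 3 fell against steady-state HA in edgeR, close to the 9.46% higher and 8.0% lower among all genes (17.5% in all), and the median log2 ratio was -0.13 over the members and -0.02 over all genes. By family 1 SR, 3 hnRNP and 1 RBM genes rose, and 1 SR and 2 RBM genes fell. Of the 10 SR genes 9 were below 0. The groups did not overlap for 8 members, against 10.7% of all genes.

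The 3 calls that held under every setting run were those of Hnrnpa1, Srsf5 and Srsf3, and their promoters are shown because these genes, of related function, moved in opposite directions. The windows run from 250 bases before to 50 bases after the annotated start, from RefSeq on GRCm38.p6, all on the plus strand and printed 5′ to 3′; the counts themselves were made on mm9. Capitals mark matches, on either strand, to the Sp1 box GGGCGG, the CCAAT box CCAAT, the CRE core TGACG, the ETS core CCGGAAG, the TATA box TATAAA, an NF-kB site and an interferon-stimulated response element (ISRE). Overlapping matches, such as an Sp1 box that runs into an ETS core and a CRE core in Srsf5, form 1 run of capitals.
Hnrnpa1, chr15:103240147-103240446: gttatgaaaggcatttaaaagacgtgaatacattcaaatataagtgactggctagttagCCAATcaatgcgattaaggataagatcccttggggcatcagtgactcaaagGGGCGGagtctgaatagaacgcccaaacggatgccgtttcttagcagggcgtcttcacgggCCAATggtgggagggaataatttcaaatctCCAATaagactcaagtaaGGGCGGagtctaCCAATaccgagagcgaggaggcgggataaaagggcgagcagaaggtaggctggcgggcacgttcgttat
Srsf5, chr12:80945249-80945548: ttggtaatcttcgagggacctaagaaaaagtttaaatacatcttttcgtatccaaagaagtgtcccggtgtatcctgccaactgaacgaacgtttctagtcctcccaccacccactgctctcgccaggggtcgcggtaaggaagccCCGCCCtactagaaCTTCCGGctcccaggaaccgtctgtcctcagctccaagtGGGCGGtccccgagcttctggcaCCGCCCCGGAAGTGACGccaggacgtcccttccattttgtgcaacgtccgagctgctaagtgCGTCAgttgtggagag
Srsf3, chr17:29032410-29032709: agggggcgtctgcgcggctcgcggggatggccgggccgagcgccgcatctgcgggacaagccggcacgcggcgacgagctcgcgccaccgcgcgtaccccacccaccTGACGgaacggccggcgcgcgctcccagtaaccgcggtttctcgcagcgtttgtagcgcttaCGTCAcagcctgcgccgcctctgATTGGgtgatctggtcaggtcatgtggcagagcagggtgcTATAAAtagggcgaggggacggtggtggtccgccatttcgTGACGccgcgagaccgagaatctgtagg
The Hnrnpa1 window held 4 CCAAT boxes and 2 Sp1 boxes, that of Srsf5 3 Sp1 boxes, 2 ETS cores and 2 CRE cores, and that of Srsf3 3 CRE cores, 1 CCAAT box and 1 TATA box. None of the 3 held the NF-kB or ISRE letters searched. Over all 32851 promoter windows of the same length, 35.7% held the Sp1 box, 37.4% the CCAAT box, 20.8% the CRE core, 8.86% the ETS core, 13.6% the TATA box, 1.47% the NF-kB letters and 3.44% the ISRE letters. Of 76 windows of 59 members, 65.8%, 46.1%, 46.1%, 21.1%, 11.8%, 2.63% and 3.95% held them, in the same order. Matches are a description of the letters and do not show that a factor binds.

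Srsf3 had the largest fall. It had 17.4, 1.77, 8.78 and 7.61 CPM in LPS HA, against 28.1 to 70.0 CPM in steady-state HA, with a median of 47.0. All 4 LPS libraries lay below all 6 steady-state libraries, and the log2 ratio was -2.39 ± 0.38 (adjusted p = 3.72e-05). Left-out libraries gave -2.97 (without LPS HA 1-1) to -2.02 (without LPS HA 1-2), and a pseudogene named for Srsf3 could share its reads. In IgG the gene did not pass (18.1 ± 12.4 CPM in LPS IgG and 22.2 ± 6.62 CPM in steady-state IgG, log2 -0.28 ± 0.38, adjusted p = 0.701).

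Hnrnpa1, the splicing silencer of exons and of inflammatory and viral transcripts, had 16.6, 21.2, 19.0 and 24.3 CPM in LPS HA, against 4.53 to 8.74 CPM in steady-state HA, with a median of 7.75. The groups did not overlap, and the log2 ratio was 1.48 ± 0.33 (adjusted p = 0.00147). In counts these were 16 to 26 and 4 to 13 per library, and pseudogenes named for Hnrnpa1 could share its reads. In IgG it had 16.3 ± 3.77 CPM after LPS and 8.48 ± 4.30 CPM at steady state, which did not pass (log2 0.84 ± 0.34, adjusted p = 0.103). Its neighbours in the family, Hnrnpa2b1, a reader of methylated RNA (50.4 ± 11.9 CPM in LPS HA and 29.0 ± 7.69 CPM in steady-state HA, log2 0.79 ± 0.23, adjusted p = 0.0143), and Hnrnpm (134 ± 20.5 CPM in LPS HA and 96.5 ± 18.8 CPM in steady-state HA, log2 0.45 ± 0.14, adjusted p = 0.0271), rose as well. The call of Hnrnpa2b1 was lost without LPS HA 2-2 (0.66), and that of Hnrnpm without LPS HA 1-2 or 2-2 or steady-state HA 1-2 or 2-2 (0.37 to 0.44).

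Srsf5, an SR protein whose transcript responds to growth and stress signals, rose in both precipitates. It had 139, 271, 217 and 152 CPM in LPS HA, against 108.1 to 131 CPM in steady-state HA. In LPS IgG it had 211, 149, 158 and 134 CPM, against 74.0 to 133 CPM in steady-state IgG. In each precipitate all LPS libraries lay above all steady-state libraries, with log2 ratios of 0.75 ± 0.17 in HA (adjusted p = 0.00162) and 0.60 ± 0.17 in IgG (adjusted p = 0.017). The IgG call was lost without LPS IgG 1-1 (0.44), LPS IgG 2-1 or steady-state IgG 2-2. The HA to IgG ratio did not change beyond its error (0.15 ± 0.24, adjusted p = 0.769).

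The RBM genes gave the other 3 calls in HA. Rbm6, a splicing regulator, had 57.8 ± 9.16 CPM in LPS HA and 34.6 ± 8.62 CPM in steady-state HA (log2 0.68 ± 0.23, adjusted p = 0.0338), and it too has pseudogenes named for it. Rbm26 had 14.1, 8.84, 13.2 and 3.04 CPM in LPS HA, against 15.6 to 29.6 CPM in steady-state HA, and Rbm39, a relative of the splicing factor U2AF2, had 38.1, 22.1, 39.5 and 48.7 CPM in LPS HA, against 51.7 to 142 CPM in steady-state HA. Both fell without overlap of the groups, by 1.06 and by 1.08 on the log2 scale (adjusted p = 0.0113 and 0.0485). The call of Rbm26 was lost without LPS HA 2-2 (-0.85). That of Rbm6 was lost without LPS HA 1-2, 2-1 or 2-2 or steady-state HA 1-1, 1-2 or 2-2 (0.61 to 0.70), and that of Rbm39 without any single LPS HA library or without steady-state HA 1-1, 1-2, 2-1 or 2-2 (-0.83 to -1.19). Rbm39 also did not pass with DESeq2 size factors (-1.07), no filter (-1.08), limma-voom (-1.03) or summed libraries (-1.02). Leaving out LPS HA 1-1, the library closest to steady state in Srsf3, raised the count of calls from 8 to 17, and leaving out LPS HA 2-2 lowered it to 3; without LPS HA 1-2, steady-state HA 1-2 or steady-state HA 2-2 it was 5.

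**Figure D5:**
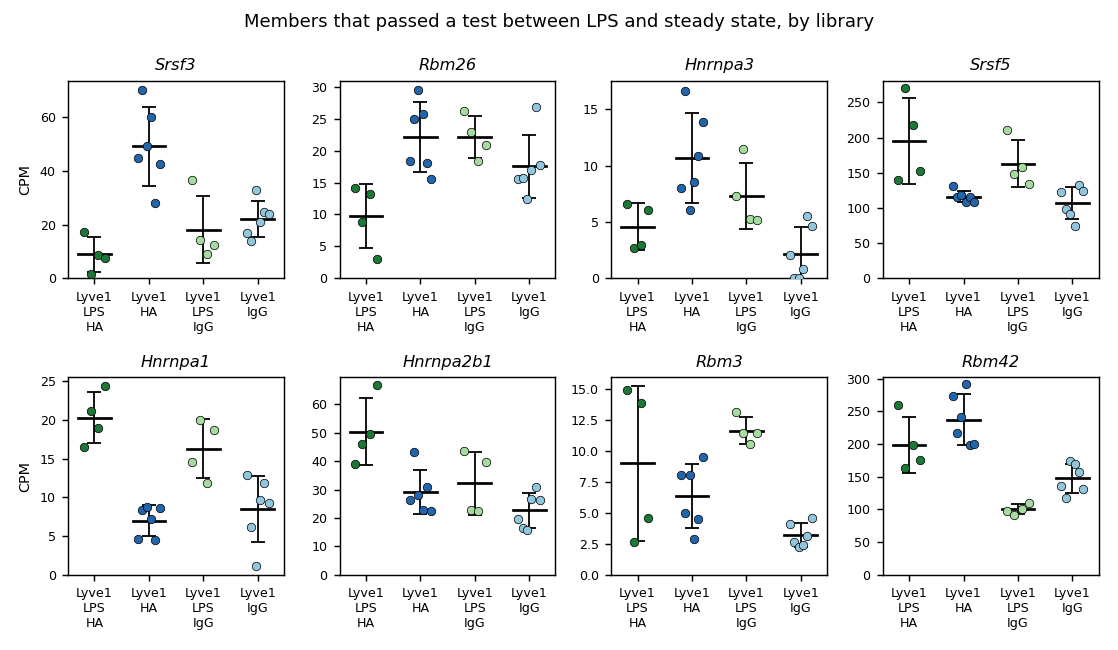
CPM of 8 members in Lyve1 libraries after LPS and at steady state, in HA and IgG precipitates; points are libraries and bars are the mean with its SD. Srsf3 and Rbm26 are lower in LPS HA than in steady-state HA with no overlap, Hnrnpa1 is higher in LPS HA with no overlap, and Rbm3 is higher in LPS IgG than in steady-state IgG with no overlap.

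In the background RNA of IgG precipitates, 5 of 54 members rose and 1 fell after LPS in edgeR, against 6.92% higher and 6.44% lower (13.4% in all) among all genes. The median log2 ratio was 0.15 over the members and 0.01 over all genes, and the groups did not overlap for 8 members, against 13.3% of all genes. Besides Rbm25 and Srsf5 these were Rbm3, Hnrnpa0, Rbmx and, falling, Rbm42. Rbm3, the cold-inducible RNA chaperone, had 13.1, 11.4, 10.5 and 11.5 CPM in LPS IgG, against 2.27 to 4.62 CPM in steady-state IgG, with a median of 2.89. The groups were well apart (log2 1.78 ± 0.45, adjusted p = 0.00565), although single libraries held 4 to 11 counts after LPS and 2 to 7 at steady state and a pseudogene is named for it. In HA the LPS libraries had 14.9, 2.65, 13.9 and 4.56 CPM, on both sides of the steady-state range of 2.86 to 9.51 CPM. Its relative Cirbp, not a member, passed in both precipitates (log2 0.80 ± 0.16 in HA, adjusted p = 0.000454, and 0.84 ± 0.17 in IgG, adjusted p = 0.000792).

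Hnrnpa0 and Rbmx rose in IgG after LPS. Hnrnpa0 had 52.4 ± 14.3 CPM in LPS IgG and 28.7 ± 6.17 CPM in steady-state IgG (log2 0.80 ± 0.24, adjusted p = 0.0229), and Rbmx had 30.4 ± 5.07 CPM in LPS IgG and 18.1 ± 4.004 CPM in steady-state IgG (log2 0.75 ± 0.24, adjusted p = 0.0279). Both pairs of groups were without overlap. Rbm42 fell by 0.54 on the log2 scale, with 100.02 ± 7.49 CPM in LPS IgG and 147 ± 22.7 CPM in steady-state IgG (adjusted p = 0.018). Without LPS IgG 1-1 the calls of Rbm42 (-0.53), Hnrnpa0 (0.75), Rbmx (0.73) and Srsf5 were lost and 2 members passed in all. All genes called went from 13.4% to 10.2% in that fit. The call of Hnrnpa0 was also lost without LPS IgG 1-2 (0.66) or steady-state IgG 2-1 (0.72), and that of Rbmx without LPS IgG 2-1 (0.62) or steady-state IgG 1-2, 2-1 or 2-2 (0.67 to 0.72). Rbm3 and Rbmx lie on chromosome X.

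The LPS changes in HA and in IgG come from separate libraries. Of the 54 members 12 were above 0 in both precipitates, 9 below 0 in both, 25 above 0 in IgG alone and 8 in HA alone. The test of this difference is the HA to IgG ratio after LPS over that at steady state. In it 3 of 54 members fell and 0 rose in edgeR, against 1.59% lower and 1.64% higher (3.23% in all) among all genes. At an unadjusted p under 0.05, counted for the members only, 2 were higher and 13 lower. The median log2 value was -0.27 over the members and -0.01 over all genes, and 38 of 54 were below 0. Besides Rbm25 these were Srsf3 (-2.11 ± 0.55, adjusted p = 0.0323) and Hnrnpa3 (-2.66 ± 0.77, adjusted p = 0.0475). Hnrnpa3 had 6.63, 2.65, 2.93 and 6.09 CPM in LPS HA, against 6.05 to 16.7 CPM in steady-state HA. In LPS IgG it had 7.29, 11.4, 5.27 and 5.21 CPM, against 0 to 5.54 CPM in steady-state IgG, and neither change passed on its own in HA (log2 -1.21 ± 0.48, adjusted p = 0.0782). The call of Srsf3 was lost without LPS IgG 1-1 (-1.48), LPS IgG 1-2, LPS HA 1-2, 2-1 or 2-2, steady-state HA 1-2 or steady-state IgG 1-1. That of Hnrnpa3 was lost without 12 of the 17 libraries it was tested without (-2.41 to -2.78): any LPS IgG library, LPS HA 1-2, 2-1 or 2-2, steady-state HA 1-1, or steady-state IgG 1-1, 1-2, 2-1 or 2-2. The count was 10 without LPS HA 1-1 and 1 without steady-state HA 1-2, steady-state IgG 1-1, LPS HA 1-2, 2-1 or 2-2 or LPS IgG 1-1 or 1-2.

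The HA to IgG ratios at steady state and after LPS come from separate libraries, and members enriched at steady state can be followed into those after LPS. Of the 10 that rose in Lyve1 HA over IgG at steady state, Hnrnpab and Rbm42 also passed after LPS. Hnrnpll had 14.1, 2.65, 8.78 and 0 CPM in LPS HA, with 0 counts in library 2-2, and 10.4 ± 4.18 CPM in LPS IgG. Hnrnpdl had 26.1 ± 8.09 CPM in LPS HA, against 41.5 ± 10.9 CPM in steady-state HA (log2 -0.64 ± 0.23, adjusted p = 0.0552). Of 52 members tested at both times, 26 were above 0 in HA over IgG under both conditions, 20 at steady state alone and 4 after LPS alone.

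Other splicing genes moved beside the members after LPS. In HA over steady-state HA, 2 of 33 core spliceosome genes rose and 5 fell, among them Prpf6 of the tri-snRNP (log2 -0.86 ± 0.17, adjusted p = 0.000381). Both Tra2 genes, which encode SR-like activators, fell: Tra2a had 16.9 CPM in LPS HA and 43.9 CPM in steady-state HA on average (log2 -1.37 ± 0.29, adjusted p = 0.000834), and Tra2b 9.16 CPM in LPS HA and 23.5 CPM in steady-state HA (-1.32 ± 0.34, adjusted p = 0.00685), the 2 calls among 16 SR kinases and related genes. Of 20 tissue-restricted regulators 1 rose, the polypyrimidine tract binder Ptbp1 (1.12 ± 0.21, adjusted p = 0.000214), and 3 fell, Mbnl2 (-1.13 ± 0.31, adjusted p = 0.0106), Qk (-0.80 ± 0.26, adjusted p = 0.0291) and Khdrbs3 (-0.66 ± 0.23, adjusted p = 0.0439). Of 24 other RNA-binding proteins 2 rose, Cirbp and Ybx3 (0.77 ± 0.24, adjusted p = 0.0251), and 1 fell, Caprin1 (-1.09 ± 0.34, adjusted p = 0.0238). In IgG, 4 core spliceosome genes rose and 2 fell, and Prpf6 fell there too (-0.89 ± 0.18, adjusted p = 0.000495).

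Markers of other cells moved with LPS. The 6 endothelial markers summed to 239 to 307 CPM in LPS HA, against 56.7 to 100.1 CPM in steady-state HA, and to 139.5 to 160.4 CPM in LPS IgG, against 46.5 to 78.1 CPM in steady-state IgG; 4 of the 5 tested rose in HA and 2 of 5 in IgG. The 6 astrocyte markers summed to 1279 to 1536 CPM in LPS HA and 487 to 839 CPM in steady-state HA, with 2 of 6 higher, and to 1432 to 1663 CPM in LPS IgG and 519 to 772 CPM in steady-state IgG, with 1 of 6 higher. Microglial markers numbered 10 after LPS, where Gpr34 was not listed, and 11 at steady state. They summed to 1072 to 1377 CPM in LPS HA and 572 to 911 CPM in steady-state HA, with 1 of 8 tested higher. In IgG they summed to 491 to 637 CPM after LPS and 412 to 584 CPM at steady state, with 1 of 8 higher and 3 lower. Neuronal markers summed to 4314 to 5847 CPM in LPS HA and 5768 to 6380 CPM in steady-state HA, with 2 of 10 lower, and 3 of 6 oligodendrocyte markers fell in each precipitate. The 5 neutrophil markers summed to 39.8 to 167 CPM in LPS HA. The 4 listed at steady state, without Retnlg, summed to 8.58 to 70.9 CPM in steady-state HA, so these sums cover unlike sets. Of the 3 neutrophil markers tested, 1 rose. Over these lists the only listed marker at 0 in a whole group was P2ry12 of the microglial list, in LPS IgG. Of a monocyte list not summed here, Ly6c2 was at 0 in LPS IgG too. Among the 5 border macrophage markers tested, 0 passed between LPS and steady state in HA and 0 in IgG. The part of these shifts in the changes of the members was not tested.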

How the data were processed

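Half-brain precipitates of 32 libraries in 6 groups were compared. The deposited values were raw counts per gene, per the file headers, on mm9, the build named in the submitters' processing notes; aligner and strand setting are not given in the sources used here. Counts were used as deposited from 2 tables, a steady-state table of 24 libraries and a Lyve1 table of 20, which share 12 libraries with identical counts and were fitted separately, so levels set across them rest on separate fits. Separate source data of the series held 28 library columns of no sample used here, which were left out. Each gene listed in the 2 count tables reached at least 6 counts in some library. Libraries were mapped to groups by the names of their columns.

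Genes were tested in edgeR 4.0.16 (R 4.3.3) with its quasi-likelihood test, TMM scaling, robust dispersion and filterByExpr (minimum count 10, minimum total 15), with all groups of a table in 1 model without a replicate block. P-values were adjusted by Benjamini-Hochberg over all genes tested, and a gene passed at an adjusted p under 0.05. All adjusted p-values in the text come from edgeR unless another tool is named. CPM is a gene's count scaled to the TMM-adjusted library size of its table (the library's counts in tested genes times its TMM factor). Shares of counts are of the library total. The SE of a log2 ratio was taken as its absolute value divided by the square root of the test's F statistic. The depth of the libraries limits genes with few counts most. The tests were tried on simulated counts with known changes. Same-numbered libraries of different groups did not all deviate together, so the numbers were not taken to pair them. HA and IgG libraries of 1 line that share a first number tended to deviate together, however. Their deviations from group means correlated at 0.02 to 0.36 in steady-state Lyve1 and -0.13 to 0.64 in Sall1 animals. Libraries that share a first number may thus not be independent, and fits with them summed are given below.

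Alternatives were DESeq2 1.42.0, limma-voom (limma 3.58.1), other scalings, no filter, only the groups compared, a replicate block, summed libraries and left-out libraries. Families and gene lists were chosen with earlier results of these data known; within the families, members were taken by symbol alone. Named members were those that passed with the largest ratios and at least 10 counts on average in the higher group, members at extremes or with the smallest p, and, of the other lists, up to 4 passing genes with the smallest p; other names were chosen after their values were seen. Promoter sequences are from RefSeq (GRCm38.p6).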

Additional observations from a re-analysis of the deposited data

Results flagged for a closer look

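Of 132 sets of library values (22 members in 6 groups), 2 held a library far from the rest of its group by Dixon's criterion, which chance exceeds in about 1 of 20 sets. Rbm25 had 16.4 CPM in Sall1 HA 2-2, where the next library of that group had 7.76 CPM. Rbm28 had 24.9 CPM in Sall1 IgG 3-2, where the next had 18.5 CPM.

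The HA to IgG ratio differed between LPS-treated and steady-state Lyve1 animals for 3 members, by the edgeR test of the difference. The log2 difference, LPS over steady state, was -2.94 for Rbm25, -2.66 for Hnrnpa3 and -2.11 for Srsf3.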

How the results depend on the processing

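Counts of members that passed changed by over 1.5 times in these settings. With libraries that share a first number summed, 0 passed in Sall1 HA over IgG (1.44% of all genes). Lyve1 HA over IgG gave 4 (8.89%) and LPS HA over LPS IgG 3 (3.91%). LPS HA over steady-state HA gave 5 (9.93%) and the LPS ratio of HA to IgG 1 (0.617%). Fewer samples entered these fits. For Sall1 HA over IgG, 1 passed with only the groups compared (6.10%) and 1 without the Sall1 libraries numbered 3 (7.19%). It gave 0 without those numbered 1 or 2 (0.673%) and 7 without IgG 2-1 and 2-2 (13.1%), the last chosen after seeing the data. Rbm25 there turned to 0.31 without the libraries numbered 1 or 2. For Sall1 HA over Lyve1 HA, 8 passed without the Sall1 libraries numbered 1 or 2 (8.78% of all genes). For Sall1 IgG over Lyve1 IgG, 1 passed with DESeq2 (0.146%) and 2 without the Sall1 libraries numbered 3 (0.173%). The LPS ratio gave 6 with limma-voom (5.32%). The cause of these changes was not tested. Leaving out single libraries gave 2 to 3 calls for Sall1 HA over IgG, 8 to 14 for Lyve1 HA over IgG, 3 to 8 for LPS HA over LPS IgG, 3 to 17 for LPS HA, 2 to 8 for LPS IgG and 1 to 10 for the LPS ratio, and 0 for the 3 comparisons of the lines. With the replicate block, 2, 14, 6, 10, 8 and 3 members passed in those 6 comparisons, and 0 in the comparisons of the lines. All genes called with it were 11.8%, 28.3%, 11.5%, 21.5%, 15.6% and 4.68% in the 6. The block ended 1 of the 35 calls, that of Rbm39 in LPS HA (-1.15, adjusted p = 0.0564). The block gave libraries with the same pair of numbers a shared effect over all groups of a table. Since those numbers were not taken to pair libraries, it does not test pairing. For the 35 calls, 560 values were counted as keeping direction and call, 109 lost the call and 1 reversed. The 560 include 1 value of Hnrnpa3 in the LPS ratio that had no adjusted p. Members with few counts, such as Hnrnpa3, Hnrnpll and Rbm3, are limited most by depth.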
